A study of Mus musculus with 4 samples.

Results

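Glp1r, the gene of the receptor for glucagon-like peptide 1 (GLP-1), was followed through donor T cells (Tc) of leukemia-bearing mice after allogeneic transplantation. It is 1 of 32285 genes in the count matrices, and it was chosen by its measured pattern in these same data, namely its UMIs in CD8+ Tc. Its levels across kinds and states of cells are therefore a description and carry no test. The single-cell RNA came from the spleens of 4 mice, 1 library per mouse. All 4 were irradiated BALB/c recipients that received 10000 WEHI-3B cells, a BALB/c myelomonocytic leukemia line, together with bone marrow from C57BL/6 donors, and on day 2 another 200000 donor Tc. The spleens were taken on day 23. In 2 mice the donors were Havcr2fl/fl, with loxP sites in the gene of TIM-3, and in 2 they were Havcr2fl/fl;E8icre/+, in which Cre is driven by a CD8 enhancer and is meant to delete Havcr2 in CD8+ Tc. Both groups thus share the floxed allele, the transplant and the leukemia, and no age is given by group. The labels name a pan-T cell isolation kit, and 4700 of the kept cells were still outside the T cell clusters.

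The matrices held 15784 barcodes, of which 11507 were kept as cells, 1204 to 4328 per library. Gene UMIs per library ranged from 17693991 to 55045903, where a UMI (unique molecular identifier) marks 1 captured RNA molecule. Of 21 clusters, 10 were T cell clusters by Cd3 genes, with 6807 cells. Among them, CD8+ Tc were defined by a UMI of Cd8a or Cd8b1 in the absence of Cd4 (4281 cells), and CD4+ Tc by Cd4 in the absence of both CD8 genes (1765 cells). Only 17 barcodes occurred in more than 1 library, in 34 cells.

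Havcr2, the deleted gene, was the check of the labels. Among CD8+ Tc it stood at 61.2 and 7.83 CPM in the libraries labelled Havcr2fl/fl;E8icre/+ replicates 1 and 2, where CPM are the UMIs of a gene over all gene UMIs of the same cells, scaled to a common total. In Havcr2fl/fl replicates 1 and 2 it stood at 54.8 and 114 CPM. The library labelled Havcr2fl/fl;E8icre/+ replicate 1 thus kept as much Havcr2 RNA as a control library, which its label would not lead one to expect. For Tigit, Prdm16 and Xlr, the 3 genes called by genotype below, it stood with the other library of its label. Those calls were themselves made with the labels. The reason for its Havcr2 level was not tested. Every comparison of the genotypes given here includes that library unless stated.

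GLP-1 is a hormone released from the gut after a meal, and its receptor is a class B G protein-coupled receptor best known from pancreatic beta cells, where it raises insulin release. Bound by GLP-1, the receptor couples to the stimulatory G protein (Gs), adenylyl cyclase makes cAMP, and cAMP acts through protein kinase A and the EPAC exchange factors. In T cells, cAMP is known from other Gs-coupled receptors, such as those for adenosine and prostaglandin E2, as a signal that restrains TCR signaling. Exhausted CD8+ Tc are chronically stimulated cells with inhibitory receptors, and are commonly divided into Tcf7+ precursor exhausted (TPEX) and terminally exhausted (TTEX) cells.

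Glp1r (ENSMUSG00000024027) occupies bases 30901817 to 30940791 of chromosome 17 (GRCm38, plus strand), with transcripts of 13 and 14 exons in GENCODE M21. An antisense gene on the minus strand, ENSMUSG00000117786 (Gm10503 in the matrices, 30920338 to 30963220), overlaps its end. Another minus-strand transcript of GENCODE M21, AC174471.1 (ENSMUSG00000118341, 30459502 to 30923831), overlaps the start of Glp1r and the window shown here, and has no row in the matrices. Gm10503 had 7, 2, 0 and 2 UMIs in the CD8+ Tc of the 4 libraries (Havcr2fl/fl;E8icre/+ replicates 1 and 2, then Havcr2fl/fl replicates 1 and 2), in cells that held 638, 117, 77 and 305 Glp1r UMIs. The next protein-coding gene on the same strand, Umodl1, had 0 UMIs in CD8+ Tc. The 5′ end of the gene is shown because the cAMP pathway has a known DNA element that can be looked for there. RefSeq's window on GRCm38.p6, chr17:30901617-30901916 on the plus strand, runs from 250 bases before to 50 bases after RefSeq's start at 30901867, which lies 50 bases inside the start given by GENCODE, and capitals mark GC boxes (GGGCGG on either strand).
Glp1r promoter: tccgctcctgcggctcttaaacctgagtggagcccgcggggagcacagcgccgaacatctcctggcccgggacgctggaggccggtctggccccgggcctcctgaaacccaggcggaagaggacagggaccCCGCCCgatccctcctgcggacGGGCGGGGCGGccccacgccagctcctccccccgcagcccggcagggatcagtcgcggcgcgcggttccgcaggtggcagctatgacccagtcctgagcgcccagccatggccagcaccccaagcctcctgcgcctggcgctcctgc
Its GC content was 73.7%, against a median of 52.7% over 32851 promoters of the same length, 94.9% of which were lower. It held 3 GC boxes, of which 2 overlap by 1 base, and 35.7% of all promoters held at least 1. It held 0 copies of the cAMP response element TGACGTCA, which 1.79% of promoters held, and 0 copies of its core TGACG, which 20.8% held. The NR4A monomer site AAAGGTCA (1.51% of promoters), the AP-1 site TGANTCA (7.81%), the NFAT core GGAAA (61.3%) and the TATA box TATAAA (13.6%) were also at 0, each searched on both strands. These matches describe the letters of this window alone, and the core also lies within the full element.

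Glp1r RNA was found mainly in CD8+ Tc. A Glp1r UMI was present in 329 of 1538 CD8+ Tc (21.4%, 95% Wilson interval 19.4 to 23.5) in the library labelled Havcr2fl/fl;E8icre/+ replicate 1 and in 82 of 963 (8.52%, 6.91 to 10.4) in replicate 2. It was present in 39 of 486 (8.02%, 5.93 to 10.8) in Havcr2fl/fl replicate 1 and in 204 of 1294 (15.8%, 13.9 to 17.9) in replicate 2. One library of each genotype was high and one was low, and the intervals, which cover counting error only, separate the high from the low libraries. The mean share was 13.4% ± 6.38 (SD, n = 4), from 654 Glp1r-positive cells. By summed UMIs, Glp1r stood at 71.5, 16.4, 19.3 and 62.9 CPM in the same order, with a mean of 42.5 CPM ± 28.7 (SD, n = 4).

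In CD4+ Tc a Glp1r UMI was found in 7 of 582, 2 of 629, 1 of 241 and 3 of 313 cells, a mean share of 0.724% ± 0.426 (SD, n = 4). The level was 2.71, 1.03, 1.34 and 8.63 CPM, so the lowest CD8+ value exceeded the highest CD4+ value, and the mean of CD8+ Tc was 12.4 times that of CD4+ Tc (3.63 on the log2 scale, and 4.40 without Havcr2fl/fl replicate 2). T cells with both Cd4 and Cd8 UMIs were positive in 10 of 84, 8 of 90, 4 of 28 and 1 of 21 cells (mean 9.96% ± 4.11, SD, n = 4). T cells with neither had 0 positive among 538 cells, which allows a share of up to 0.558%.

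Cells outside the T cell clusters, among them erythroid-like, myeloid or leukemia-like and B-like clusters, gave 28 positive cells of 4700, a mean share of 0.643% ± 0.245 (SD, n = 4). Their median depth was 16900 UMIs, against 4803 in CD8+ Tc and 4520 in CD4+ Tc, and their level was 0.230 to 0.677 CPM. Their share was taken as the background of free RNA, and before thinning the share of CD4+ Tc lay close to it. After thinning each cell to 2000 UMIs, the mean share was 6.78% in CD8+ Tc, 0.562% in CD4+ Tc and 0.0345% in the other cells. Thinning left out 206 CD8+ Tc, 88 CD4+ Tc and 137 other cells with fewer UMIs. Of the 1248 Glp1r UMIs in kept cells, 91.1% were in CD8+ Tc, 3.93% in T cells with both markers, 1.84% in CD4+ Tc and 3.13% in other cells.

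**Figure D1:**
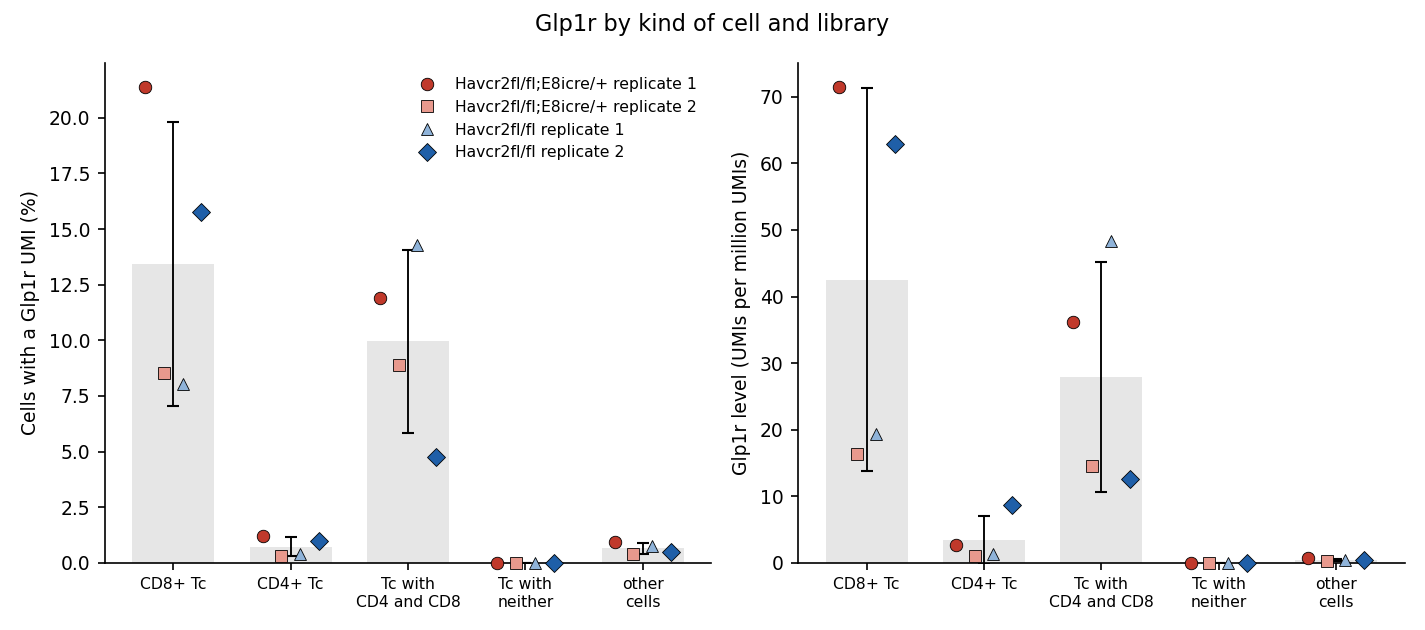
Share of cells with a Glp1r UMI (left, in %) and Glp1r level in CPM (right) in 5 kinds of cells, by library. Points are libraries, bars are means and error bars are SDs over the 4 libraries. In CD8+ Tc the libraries sit at 8.02% to 21.4% and 16.4 to 71.5 CPM, and in CD4+ Tc at 0.318% to 1.20% and 1.03 to 8.63 CPM.

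Most Glp1r-positive CD8+ Tc had few molecules. Of the 654 positive cells, 398 had 1 UMI, 256 (39.1%) had 2 or more and 56 had 4 or more, with a highest count of 8. A share of 47.1% of positive cells had 2 or more UMIs in the library labelled Havcr2fl/fl;E8icre/+ replicate 1, 24.4% in replicate 2, 38.5% in Havcr2fl/fl replicate 1 and 32.4% in replicate 2. Positive cells were deeper than negative cells in each library, with median UMIs of 5644 against 4571, 6788.5 against 6080, 9532 against 6837 and 3328.5 against 2966 in the same order. A cell without a Glp1r UMI may still hold the RNA at these depths.

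The CD8+ Tc formed 11 clusters, made with Glp1r and Havcr2 left out of the variable genes. Cluster 1 had the highest Glp1r-positive share. It was called TTEX-like because 8 of 9 markers were raised (Eomes, Nr4a2, Entpd1, Rgs16, Pdcd1, Lag3, Tox and Cd160), and Ccl3, Ltf, Ccl4 and Mrc2 led its genes by fold. In it, 143 of 288 cells (49.7%, 95% Wilson interval 43.9 to 55.4) were positive in the library labelled Havcr2fl/fl;E8icre/+ replicate 1 and 27 of 111 (24.3%, 17.3 to 33.1) in replicate 2. In Havcr2fl/fl replicates 1 and 2 it was 17 of 64 (26.6%, 17.3 to 38.5) and 108 of 246 (43.9%, 37.8 to 50.2). The mean was 36.1% ± 12.6 (SD, n = 4), and 19.6% after thinning to 2000 UMIs. The level was 209, 54.8, 59.4 and 210 CPM in the same order, and the pooled level was 155 CPM, against 25.4 CPM in the other CD8+ Tc. Ranked by fold over the other CD8+ Tc, Glp1r was number 3 among genes found in at least 10% of the cells of this cluster. The cluster was picked by its Glp1r share, so that rank is no separate result. TTEX-like cells were 16.6% of CD8+ Tc and held 45.1% of the Glp1r-positive cells and 52.9% of the Glp1r UMIs.

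The effector-like cluster 3 (Gzmk, Gzmb, Prf1, Ccl5 and Nkg7 raised) parted the libraries most. There, 65 of 161 cells (40.4%) were positive in the library labelled Havcr2fl/fl;E8icre/+ replicate 1 and 28 of 126 (22.2%) in Havcr2fl/fl replicate 2, but only 3 of 86 (3.49%) and 3 of 48 (6.25%) in the other libraries. The mean was 18.1% ± 17.0 (SD, n = 4). Cycling cells were positive too. In cluster 5, led by DNA replication genes, 44 of 177, 13 of 73, 5 of 26 and 12 of 114 cells had a Glp1r UMI (mean 18.1% ± 5.90, SD, n = 4). In cluster 6, led by histone and mitotic genes, it was 39 of 156, 6 of 56, 2 of 22 and 13 of 121 (mean 13.9% ± 7.45, SD, n = 4). These cells were deep, with medians of 7874 and 10532 UMIs, and after thinning their means were 6.18% and 2.94%.

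Unnamed cluster 0, whose leading genes included Fcer1g, Klrb1b and Itga1 and which had Pdcd1, Lag3 and Cd160 raised, held 24 of 261, 29 of 247, 6 of 119 and 33 of 305 positive cells (mean 9.20% ± 2.96, SD, n = 4). It held 35.4% of the positive cells of the library labelled Havcr2fl/fl;E8icre/+ replicate 2, the largest part of that library. Unnamed cluster 4, with Klf2, S1pr1 and Cx3cr1 among its leading genes, had 2.90% to 6.72% positive cells per library. A small erythroid-like cluster of 42 cells, led by globin genes, had 5 positive cells.

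In the remaining 4 clusters Glp1r was rare. TPEX-like cells (Tcf7, Slamf6, Id3, Xcl1, Il7r and Lef1 raised) were positive in 1 of 163, 2 of 185, 0 of 68 and 1 of 112 cells, a mean of 0.647% ± 0.472 (SD, n = 4) and a pooled level of 1.43 CPM. Their median depth of 4967 UMIs was close to the 4962 UMIs of TTEX-like cells. Before thinning, their share was close to that of cells outside the T cell clusters, which were deeper, at a median of 16900 UMIs. By level, TPEX-like cells had a mean of 1.42 CPM, against 0.409 CPM in those cells, but 0 CPM in Havcr2fl/fl replicate 1. After thinning to 2000 UMIs, a positive TPEX-like cell remained only in Havcr2fl/fl replicate 2 (1 of 104). Whether the Glp1r UMIs of TPEX-like cells were free RNA was not tested. Interferon-like cells had 3 positive of 242, short-term effector-like cells (Klrg1, Cx3cr1, Zeb2 and S1pr5) 2 of 230, and naive or memory-like cells 0 of 39, which allows up to 7.69%. The lowest library of TTEX-like cells, at 24.3%, lay above the highest library of each of these 4 clusters, which was 4.76%. Each pair of neighbours in the order of cluster means overlapped in the ranges of their libraries, TTEX-like cells and cycling cluster 5 included (24.3% to 49.7% against 10.5% to 24.9%).

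**Figure D2:**
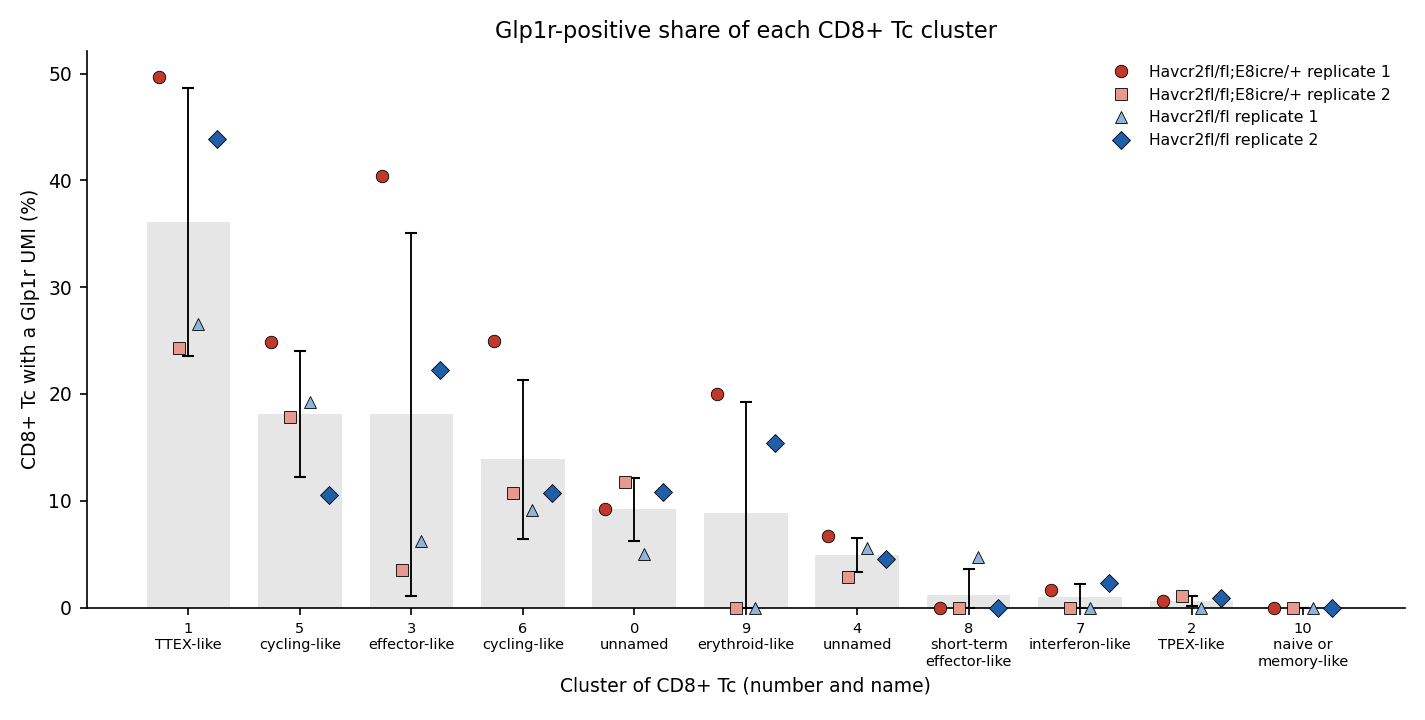
Share of CD8+ Tc with a Glp1r UMI, in %, for each of the 11 clusters in order of their mean. Points are libraries, bars are means over the 4 libraries and error bars are SDs, drawn no lower than 0. TTEX-like cells sit at 24.3% to 49.7%, TPEX-like cells at 0% to 1.08%.

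Other ways of clustering were also looked at. The top cluster of each was picked by Glp1r itself, so that it is rich in Glp1r is no separate result. At a higher resolution the top cluster held 667 cells, 98.2% of which were from TTEX-like cluster 1, with shares of 52.0%, 27.7%, 27.6% and 46.3%. Without integration of the libraries the top cluster held 865 cells, 52.3% of them from cluster 1, with shares of 62.0%, 44.7%, 53.3% and 26.7%. The libraries stood in another order there. The cells behind each share are not given by library, so the precision of these shares and of their order is not known here.

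Among CD4+ Tc, 9 of the 13 positive cells and 19 of the 23 Glp1r UMIs were in a single cluster of 340 cells, a mean share of 2.89% ± 1.59 (SD, n = 4). That cluster had all 9 TTEX markers raised and was led by Ccl4, Ccl5, Ccl3, Adgrg1 and Prf1. It was left unnamed because its 10 leading genes held more markers of another class (3) than of TTEX (2). The other 4 positive cells were among 152 cycling CD4+ Tc. Regulatory-like CD4+ Tc (Foxp3 and Il2ra raised) had 0 of 110, which allows up to 2.73%, and the largest CD4+ cluster had 0 of 561, which allows up to 0.535%.

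TCR variable genes were looked at because cells of 1 clone share them. Trav6n-5 and Trav19 were chosen after their values were seen. Trav6n-5 was found in CD8+ Tc of a single library, the one labelled Havcr2fl/fl;E8icre/+ replicate 1. There, 26 of 47 Trav6n-5 cells (55.3%, 95% Wilson interval 41.2 to 68.6) had a Glp1r UMI, against 21.4% of all its CD8+ Tc. Without these cells the share in that library was 20.3%, so that library stayed the highest. In the same library, 12 of 25 cells with Trav19 (48.0%, 30.03 to 66.5) were positive. Cells with Trbv13-2 were positive in 13 of 32 (40.6%, 25.5 to 57.7), and other variable genes with at least 20 cells lay on both sides of the 21.4%. Of the Trav19 cells 72.0%, of the Trav6n-5 cells 36.2% and of the Trbv13-2 cells 0% were in TTEX-like cluster 1. In that cluster 49.7% of all cells of this library were positive. A link of Glp1r to clones was not tested.

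Whether the level of Glp1r in CD8+ Tc differed by genotype was tested with edgeR's quasi-likelihood test on UMIs summed per library, fitted over 10897 genes. The log2 fold change of Havcr2fl/fl;E8icre/+ over Havcr2fl/fl was 0.03 (SE 0.59, 95% interval −1.30 to 1.36, adjusted p = 1.00). The means were 43.9 CPM ± 39.0 (SD, n = 2) and 41.1 CPM ± 30.8 (SD, n = 2), and the ranges of the genotypes overlapped. The value rests on single libraries. Without the library labelled Havcr2fl/fl;E8icre/+ replicate 1, the one that kept Havcr2, the log2 fold change was −1.32 (adjusted p = 0.729), and without Havcr2fl/fl replicate 2 it was 1.14 (adjusted p = 1.00). At this number of mice, differences within the interval were not detectable. Larger ones could also have failed, since a call needed an adjusted p under 0.05 over 10897 genes. Of all genes tested, 3 (0.0275%) passed an adjusted p of 0.05, named here because they were so few. Tigit, an inhibitory receptor, stood at 4.07 and 4.02 against 22.7 and 21.5 CPM, and Prdm16 and Xlr at 8.35 to 15.4 CPM against 0 to 0.209 CPM. Without the library labelled Havcr2fl/fl;E8icre/+ replicate 1, 32 genes passed. Each such fit leaves 1 mouse in a genotype, so that the spread comes from the other genotype alone. Of 27 tested genes of the GLP-1 receptor and cAMP list, 0 were called by edgeR, and 0 had an unadjusted p under 0.05. Of all 10897 genes only 278 had an unadjusted p under 0.05, so these counts are no result about the pathway.

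Glp1r-positive and Glp1r-negative CD8+ Tc were then compared for every other gene, with the UMIs of each side summed per library and the library as a block, so that both sides come from the same mouse. Glp1r itself was left out. Positive cells carried more RNA of cytotoxic and exhaustion genes and less of precursor genes. Of 9739 genes tested with edgeR, 496 (5.09%) were higher and 434 (4.46%) were lower in positive cells at an adjusted p of 0.05. These shares are the ones to set beside the counts of each gene list below. The median log2 fold change over all genes tested was 0.0074. Without the library labelled Havcr2fl/fl;E8icre/+ replicate 1, which held 329 of the 654 positive cells, 559 genes passed in place of 930. This comparison sets cells side by side as they are, so that it holds differences between the clusters in which positive cells are frequent or rare.

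Ltf, which encodes the iron-binding granule protein lactoferrin, differed most among higher genes. It stood at 58.9, 66.8, 34.8 and 22.6 TMM-normalized CPM in positive cells and at 10.8, 5.10, 2.00 and 3.72 in negative cells of the 4 libraries. All 4 positive values lay above all 4 negative ones (log2 fold change 2.96, SE 0.23, adjusted p = 1.1e-09). Mrc2, an endocytic collagen receptor, stood at 66.2, 34.9, 29.8 and 58.4 CPM in positive against 13.8, 6.53, 3.14 and 8.93 in negative cells (log2 fold change 2.48, SE 0.19, adjusted p = 5.0e-10). Gzma, the granzyme A gene, stood at 2985, 2978, 1757 and 6661 CPM against 839, 555, 292 and 2095 (log2 fold change 2.11, SE 0.10, adjusted p = 6.1e-13). Gzma rose in each library, although positive cells of Havcr2fl/fl replicate 1 held less than negative cells of Havcr2fl/fl replicate 2.

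The other genes with the largest rise were Tmprss6, a membrane serine protease of iron regulation (2.59), Filip1, a filamin-binding protein (2.20), Cd200r2, of the CD200 receptor family (2.19), the trefoil peptide gene Tff1 (2.12), the protease inhibitor gene Serpine2 (1.96), Tmcc3 (1.89) and Slc16a11, of the monocarboxylate transporter family (1.85), each as a log2 fold change. That all 10 were higher in each of the 4 libraries was part of the rule that chose them.

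Xcl1, a chemokine for XCR1+ dendritic cells, fell most, with 0.453, 6.07, 4.97 and 0 CPM in positive cells and 43.9, 147, 15.7 and 70.0 CPM in negative cells (log2 fold change −5.14, SE 0.33, adjusted p = 4.7e-11). Tcf7, which encodes the TPEX transcription factor TCF-1, stood at 2.72, 16.7, 0 and 2.65 against 73.5, 118, 61.1 and 47.4 CPM (log2 fold change −3.96, SE 0.26, adjusted p = 4.7e-11). The groups did not overlap for Tcf7. Il7r, the receptor chain for the survival cytokine IL-7, stood at 10.9, 19.7, 52.2 and 6.63 against 128, 178, 273 and 126 CPM (log2 fold change −3.24, SE 0.17, adjusted p = 1.7e-12).

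The others that fell most were Ifitm1, an interferon-induced membrane protein (−3.48), Kbtbd11 (−3.40), the surface antigen gene Ly6c2 (−3.08), the chemokine receptor gene Ccr2 (−3.01), the TCF-1 relative Lef1 (−2.91), the TCR signaling gene Tespa1 (−2.90) and S1pr1, the receptor for egress from lymphoid organs (−2.79). In positive cells of Havcr2fl/fl replicate 1, Ifitm1 and Ly6c2 stayed at 49.7 and 99.4 CPM, above the 1.33 to 2.27 and 7.96 to 18.6 CPM of positive cells in the other libraries.

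**Figure D3:**
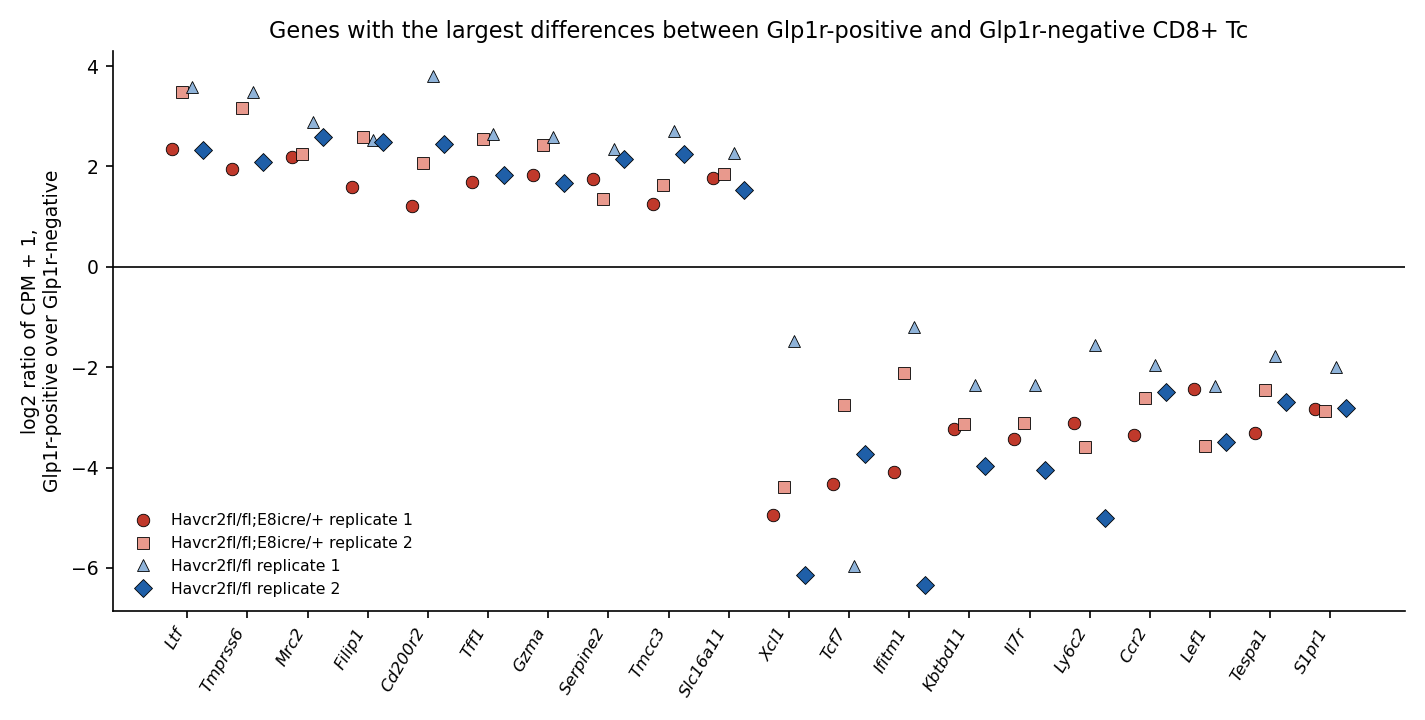
For the 10 genes with the largest rise and the 10 with the largest fall in Glp1r-positive CD8+ Tc, the log2 ratio of CPM + 1 in positive over negative cells, 1 point per library. All 4 libraries lie above 0 for the 10 genes at the left and below 0 for the 10 at the right, as the rule that chose the genes required.

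Of 14 tested exhaustion genes, 11 were higher, 0 were lower and 3 did not pass, with a median log2 fold change of 0.64. They included Nr4a2 (1.505, SE 0.08), a nuclear receptor of chronic TCR stimulation, Cd244a (1.38, SE 0.11) and Havcr2 (1.15, SE 0.12), both inhibitory receptors, Entpd1 (0.96, SE 0.12), the ectoenzyme CD39, and Lag3 (0.81, SE 0.09). Pdcd1, the PD-1 gene, and Tox, the exhaustion transcription factor, rose by 0.36 (SE 0.09) and 0.36 (SE 0.08). With cells thinned to 2000 UMIs, Tox (0.34, adjusted p = 0.167) did not pass by edgeR. Neither did Cd160, another of the 11 (0.12, adjusted p = 0.839). Pdcd1 did not pass without the library labelled Havcr2fl/fl;E8icre/+ replicate 1 (0.35, adjusted p = 0.0653) or without Havcr2fl/fl replicate 2 (0.24, adjusted p = 0.0799). Nr4a1 was also among the 11 (1.10, SE 0.33), but it was higher in only 2 of 4 libraries, at a mean of 7.84 CPM. By DESeq2 it did not pass (adjusted p = 0.759). All 7 tested precursor genes were lower, with a median of −3.24, Slamf6 (−2.65, SE 0.18), Id3 (−3.66, SE 0.40) and Cxcr3 (−1.76, SE 0.15) among them.

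Of 16 tested effector and cytotoxic genes, 11 were higher, 3 were lower and 2 did not pass, with a median of 0.55. The chemokine genes Ccl3 (1.82, SE 0.14) and Ccl4 (1.46, SE 0.11) and the perforin gene Prf1 (1.10, SE 0.09) rose, while Klrg1 (−1.94, SE 0.45), Tnf (−1.85, SE 0.47) and Cx3cr1 (−1.27, SE 0.21) fell. By DESeq2 these 3 did not pass (adjusted p = 0.0514, 0.171 and 0.131), nor did Tnf without the library labelled Havcr2fl/fl;E8icre/+ replicate 1 (adjusted p = 0.188). Ifng, counted among the 11 (0.32, SE 0.10), lay close to the threshold (edgeR adjusted p = 0.0478). It did not pass by DESeq2 (adjusted p = 0.341) or after thinning to 2000 UMIs (edgeR adjusted p = 0.902). Gzmb and Fasl, also among the 11, and Cx3cr1 did not pass after thinning either (edgeR adjusted p = 0.696, 0.0982 and 0.334). Within TTEX-like cells Cx3cr1 was at 0.0069 and Ifng at −0.43. Of 8 tested costimulation genes, Tnfrsf9, which encodes 4-1BB (1.56, SE 0.12), Tnfrsf1b (0.82, SE 0.10) and Cd226 (0.37, SE 0.09) were higher, and Icos (−0.79, SE 0.13), Tnfrsf4 (−0.94, SE 0.17) and Cd28 (−0.77, SE 0.11) were lower. After thinning, Cd226 (0.20, adjusted p = 0.641), Icos (−0.35, adjusted p = 0.624) and Tnfrsf4 (−0.46, adjusted p = 0.533) did not pass by edgeR. Of 6 residence genes, Cxcr6, Prdm1 and Rgs1 were higher by 0.41 to 0.52 and Cd69 was lower (−0.64, SE 0.16). Prdm1 (0.52, adjusted p = 0.283) and Rgs1 (0.32, adjusted p = 0.459) did not pass after thinning (edgeR). Cd69 turned to 0.15 after thinning to 2000 UMIs and to 0.33 within TTEX-like cells, in neither case past the threshold.

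Of 7 killer lectin receptor genes, Klra3 (0.84, SE 0.19, but −0.20 after thinning to 2000 UMIs) was higher and Klrk1, the NKG2D gene (−0.997, SE 0.16), was lower. Of 12 cell cycle genes, 2 were lower (Ccnb2 and Birc5, −0.51 and −0.48) and 10 did not pass. Ccnb2 did not pass by DESeq2 (adjusted p = 0.0796) or without cycling clusters (edgeR adjusted p = 0.0774). Of 6 interferon response genes 0 passed, with Irf7 and Bst2 close to the threshold (edgeR adjusted p = 0.0513 and 0.0511). Of 10 ribosomal protein genes 1 was lower (Rps27, −0.19, SE 0.05). Over all genes tested, 5.09% were higher and 4.46% lower, so small counts such as these are no result about the lists. Rps27 did not pass after thinning to 2000 UMIs (−0.29, edgeR adjusted p = 0.137).

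For the genes of the receptor's own pathway, the share that passed was near the share of all genes. Of 34 listed genes of GLP-1 signaling and cAMP, each had at least 1 UMI in CD8+ Tc, 26 were tested, 2 were higher, 1 was lower and 23 did not pass, with a median log2 fold change of 0.07. The shares over all genes tested were 5.09% higher and 4.46% lower, so the count is no result about the pathway. Gcg, which encodes the precursor of GLP-1, had 6 UMIs over all CD8+ Tc. Dpp4, the protease that cleaves GLP-1, did not pass (−0.36, SE 0.13, adjusted p = 0.0863). Gnas, which encodes the Gs alpha subunit and had the most UMIs of the list, was at 687, 650, 581 and 674 CPM in the CD8+ Tc of the 4 libraries and differed by 0.01 (SE 0.07, adjusted p = 0.969). Next by CPM came the anchoring protein gene Akap13 (0.02, SE 0.08), the protein kinase A subunit gene Prkar1a (−0.04, SE 0.08), the receptor kinase gene Grk2 (0.04, SE 0.09) and the phosphodiesterase gene Pde7a (0.16, SE 0.10), of which 0 passed.

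The adenylyl cyclase genes Adcy7 (0.30, SE 0.11, adjusted p = 0.0820) and Adcy3 (0.22, SE 0.22, adjusted p = 0.659) did not pass, and Adcy6 and Adcy9 had 11 and 1 UMIs in all CD8+ Tc. The EPAC genes Rapgef3 and Rapgef4 had 1 and 16 UMIs. The 2 genes that rose were Crem, a cAMP-responsive transcription factor (0.66, SE 0.15, adjusted p = 0.00393), and Pde3b, a phosphodiesterase that breaks down cAMP (0.54, SE 0.11, adjusted p = 0.00100). Both were higher in 4 of 4 libraries. After thinning neither passed (Crem 0.41, adjusted p = 0.664, and Pde3b 0.42, adjusted p = 0.3999), and Crem did not pass by DESeq2 (adjusted p = 0.0528) or without Havcr2fl/fl replicate 2 (adjusted p = 0.0957). Ramp1, a membrane partner of class B receptors, fell (−1.54, SE 0.41, adjusted p = 0.0156), and was lower in 4 of 4 libraries. It did not pass with the stricter cell filter (−1.23, adjusted p = 0.0879), by DESeq2 (adjusted p = 0.104) or without Havcr2fl/fl;E8icre/+ replicate 2 (adjusted p = 0.0751) or Havcr2fl/fl replicate 2 (adjusted p = 0.0894).

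Of 14 other class B receptors listed, 6 had any UMI in CD8+ Tc. Calcrl, a calcitonin-like receptor, was at 10.9, 8.11, 10.6 and 6.39 CPM in the CD8+ Tc of the 4 libraries and was the only one tested (−0.16, SE 0.30, adjusted p = 0.853). Glp2r, Gcgr and Gipr, the receptors for related hormones, had 0, 0 and 1 UMIs. Of 9 other Gs-coupled receptors, 6 were tested, 3 were higher and 0 were lower, where 5.09% of all genes tested were higher and 4.46% lower. Gpr65, a proton-sensing receptor, rose by 0.81 (SE 0.08, adjusted p = 1.4e-07), Ptger4, a prostaglandin E2 receptor, by 0.68 (SE 0.11, adjusted p = 7.5e-05) and Adrb1, the beta-1 adrenergic receptor, by 1.27 (SE 0.19, adjusted p = 2.8e-05). After thinning to 2000 UMIs, Ptger4 did not pass by edgeR (0.47, adjusted p = 0.243). Adora2a, an adenosine receptor, was higher in 4 of 4 libraries but did not pass (0.35, SE 0.12, adjusted p = 0.0655).

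**Figure D4:**
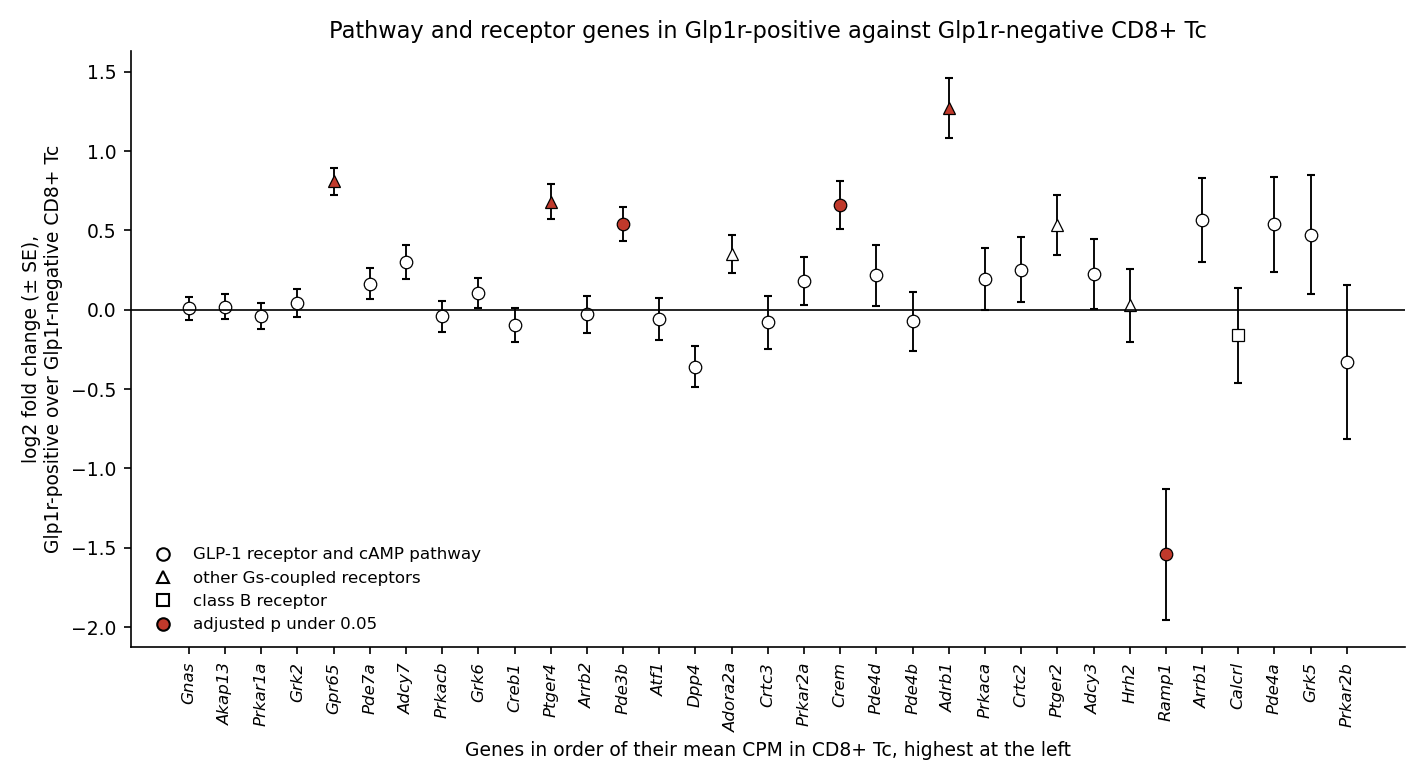
Log2 fold changes with SE of Glp1r-positive over Glp1r-negative CD8+ Tc for the tested genes of the GLP-1 receptor and cAMP list (circles), other Gs-coupled receptors (triangles) and class B receptors (square), in order of CPM. Filled symbols passed an adjusted p of 0.05, 5 of them higher (Gpr65, Ptger4, Pde3b, Crem and Adrb1) and 1 lower (Ramp1).

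Within TTEX-like cells alone, the 295 positive cells of 709 were compared with the negative ones in the same way. Of 5569 genes tested, 84 (1.51%) were higher and 54 (0.97%) were lower, and 118 of these 138 calls were also calls of the same direction over all CD8+ Tc. Gzma stayed highest in significance (1.29, SE 0.10, adjusted p = 6.9e-10), and Ltf (1.55, SE 0.25), Mrc2 (1.35, SE 0.21), Tff1 (1.25, SE 0.15), Filip1 (1.22, SE 0.20) and Serpine2 (1.18, SE 0.21) passed with smaller changes than over all CD8+ Tc. Serpine2 was lower, though, in positive cells of Havcr2fl/fl;E8icre/+ replicate 2 (39.5 against 58.5 CPM). The lower genes by smallest p were Tmsb10 (−0.71, SE 0.06), Ly6a (−1.54, SE 0.14), Ly6e (−1.18, SE 0.11) and S100a4 (−0.998, SE 0.10).

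In the same cells, 3 of 13 tested exhaustion genes (Lag3, Nr4a2 and Cd244a) and 7 of 14 effector genes (Gzma, Gzmk, Prf1, Nkg7, Ccl3, Ccl5 and Zeb2) were higher. Ccl3 was lower, though, in positive cells of Havcr2fl/fl replicate 1 (988 against 2217 CPM). Pdcd1 (0.07, SE 0.09, adjusted p = 0.815) and Tox (0.02, SE 0.08, adjusted p = 0.951) did not pass there. Only 2 precursor genes were tested there, and 0 passed (Slamf6 −1.19, adjusted p = 0.122, and Cxcr3 −0.40, adjusted p = 0.717). The 10 genes with the largest fall, Tcf7, Xcl1 and Il7r among them, were not tested within these cells. Of the 10 with the largest rise, Cd200r2 (0.81, adjusted p = 0.210) and Tmcc3 (0.85, adjusted p = 0.0804) did not pass. Of 19 tested genes of the GLP-1 receptor and cAMP list 0 passed, where 1.51% of all genes were higher and 0.97% lower. That count is therefore no result about the pathway. Crem stood at 0.64 (SE 0.23, adjusted p = 0.151), close to its value over all CD8+ Tc, and Pde3b at 0.38 (SE 0.17, adjusted p = 0.314). Of the other Gs-coupled receptors Adrb1 alone passed, but it was lower in positive cells of Havcr2fl/fl replicate 1 (19.4 against 27.0 CPM). With all CD8+ Tc thinned to 2000 UMIs before the split, which left 331 positive cells in place of 654, 321 genes passed, 260 of which were calls of the same direction without thinning.

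Markers of other cells differed between the sides as well. The summed level of 8 erythroid genes was 144 to 4328 CPM in positive and 3307 to 6858 CPM in negative cells and was lower in positive cells in 4 of 4 libraries, with 4 of 7 tested genes lower (Hbb-bs, Hbb-bt, Hba-a1 and Hba-a2) and Car2 higher. The summed level of 7 B cell genes was 193 to 722 CPM against 273 to 751 CPM, also lower in 4 of 4 libraries, with Ighm and Igkc lower. For 9 myeloid and leukemia genes it was 21.6 to 39.7 against 16.8 to 46.2 CPM, with 0 of 5 tested genes called, and for 6 genes of megakaryocytes, basophils and stem cells it was 5.15 to 15.9 against 5.71 to 10.99 CPM, with 0 of 1 called. After thinning to 2000 UMIs, Car2, Ighm and Igkc did not pass (adjusted p = 0.805, 0.227 and 0.747). By DESeq2, Car2 and Igkc did not pass (adjusted p = 0.193 and 0.0708). Within TTEX-like cells 0 of 5 erythroid and 0 of 2 B cell genes were called. The part of this RNA in the other differences was not tested. The antibody tag against the donor haplotype had medians of 1179.5 to 2964 UMIs per library in positive and 1207.5 to 2214 UMIs in negative cells.

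Havcr2 was found more often in Glp1r-positive than in Glp1r-negative CD8+ Tc. The share of cells with a Havcr2 UMI was 37.1% against 13.5% in the library labelled Havcr2fl/fl;E8icre/+ replicate 1 and 10.98% against 3.29% in replicate 2. It was 35.9% against 19.9% in Havcr2fl/fl replicate 1 and 44.1% against 22.9% in replicate 2. The intervals of both sides overlapped in Havcr2fl/fl replicate 1 (22.7 to 51.6 against 16.5 to 23.9). Within TTEX-like cells, the shares were 46.9% against 28.3%, 7.41% against 5.95%, 35.3% against 46.8% and 48.1% (52 of 108 cells) against 69 of 138 cells in the same order. There the 95% Wilson intervals of both sides overlapped in all libraries other than the one labelled Havcr2fl/fl;E8icre/+ replicate 1 (38.9 to 55.0 against 21.6 to 36.1).

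Which genes follow Glp1r across CD8+ states was described over 35 sums of UMIs, each of a cluster in a library with at least 20 cells, as the Pearson correlation of log2(CPM + 5) among 7805 genes. The sums share libraries, clusters and depth, so the values carry no p. The most similar was Mrc2 (r = 0.90, Spearman's rho = 0.89), followed by Ubash3b, a phosphatase that restrains TCR signaling (r = 0.87), and Il2rb, a receptor chain for IL-2 and IL-15 (r = 0.86). Next came Ccl3 (0.85), the granzyme-activating protease gene Ctsc (0.84), Ccl4 (0.84), the prenyltransferase gene Pggt1b (0.83), Ociad2 (0.83), Tmtc4 (0.83) and Fbxo9 (0.82). Mrc2, Ubash3b, Il2rb and Ccl3 stayed among the 10 most similar with each of the 4 libraries left out, and r of Mrc2 then ranged from 0.87 to 0.91. Mrc2 had a mean of 11.4 CPM over these sums, near the 10 CPM required. Both Mrc2 and Glp1r stood at 0 in some sums, such as TPEX-like cells of Havcr2fl/fl replicate 1, so their r leans in part on sums at the floor. The least similar were Kbtbd11 (−0.87), Slco3a1 (−0.83) and Ly6e (−0.82). Among the exhaustion genes, Cd244a (0.80) and Nr4a2 (0.79) were closest, ahead of Havcr2 (0.66), Pdcd1 (0.59) and Tox (0.54).

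**Figure D5:**
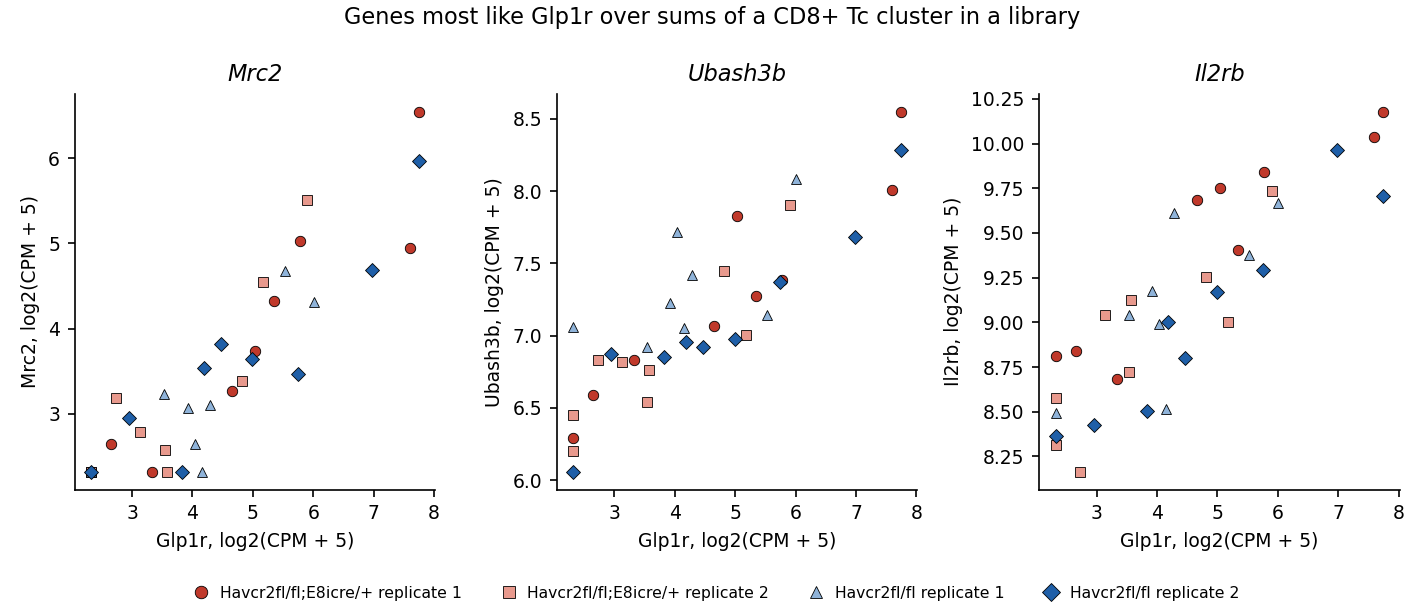
Mrc2, Ubash3b and Il2rb against Glp1r, each as log2(CPM + 5), over 35 sums of a CD8+ Tc cluster in a library, with libraries by symbol. The 2 sums farthest to the right are TTEX-like cells of the library labelled Havcr2fl/fl;E8icre/+ replicate 1 and of Havcr2fl/fl replicate 2, at 209 and 210 Glp1r CPM.

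Genes beside Glp1r on chromosome 17 were looked at after Tff1 had come up among the named genes. Tff1 lies 220.6 kb downstream (31161395 to 31165277 on GRCm38, minus strand). Of 25 genes of the matrices within 500 kb, 18 had a UMI in CD8+ Tc and 9 were tested. Of these, 2 were higher in Glp1r-positive cells (Tff1 and, upstream, Btbd9, 0.93, SE 0.13). Another 2 were lower (Dnah8, −0.69, SE 0.21, and 1700097N02Rik, −0.82, SE 0.22). Over all genes tested, 5.09% were higher and 4.46% were lower. Tff1 was a call before this window was chosen, so the counts are no result about the region. Abcg1 (0.40, SE 0.13, adjusted p = 0.0525) and Ubash3a (−0.07, SE 0.10) did not pass. The other trefoil genes, Tff2 and Tff3, between Glp1r and Tff1, had 0 UMIs in CD8+ Tc.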

How the data were processed

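Single-cell RNA libraries of splenic donor Tc were made by the 10x droplet method, 1 per mouse, with an antibody tag against the donor haplotype. Per the submitters' processing notes, Cell Ranger 6.1.2 and the mm10 build were used. The authors deposited raw UMI counts per gene and barcode, not normalized, and these were the only values used. How the counting treated strand and multigene families was not given in the sources used here.

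Barcodes with 500 or more genes, 1000 or more UMIs and no more than 10% of UMIs from mitochondrial genes passed (11632), and 125 doublets called by Scrublet in scanpy 1.11.5 were removed. Median UMIs and gene UMIs set the precision of each value, and Wilson intervals and limits of shares cover counting error only, while the interval of a log2 fold change covers the spread between libraries. Seurat 5.3.0 integrated the libraries over 2000 variable genes and 30 dimensions, without Glp1r, Havcr2, sex-linked genes and the variable genes of antigen receptors. A cluster was named from markers with a log2 difference of at least 0.5. UMIs were summed per library and tested with edgeR 4.0.16 (quasi-likelihood, TMM, filterByExpr, Benjamini-Hochberg over all genes tested), by genotype and, with the library as a block, between Glp1r-positive and Glp1r-negative CD8+ Tc. DESeq2 1.42.0 was an alternative. The scripts for these tests were checked on simulated data. Adjusted p-values under 0.05 counted as calls. By genotype, with 2 mice each, p-values measure the spread between these few mice. Between Glp1r-positive and Glp1r-negative cells, they measure how the difference within a library varies over the 4 libraries.

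Besides Glp1r, the text names the 10 genes with the largest rise and the 10 with the largest fall (past the threshold, of the same sign in all 4 libraries, with a mean of at least 20 CPM), the 10 genes most similar to Glp1r across cluster sums of at least 20 cells, called members of the gene lists and the 5 highest pathway genes. The gene, the lists and the tests were chosen with earlier results of these data known. Positions are from GENCODE M21 (GRCm38), in which 99.6% of the gene identifiers were found.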

Additional observations from a re-analysis of the deposited data

How the results depend on the processing

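The mean Glp1r-positive share of CD8+ Tc moved to 6.78% with cells thinned to 2000 UMIs, and that of TTEX-like cells to 19.6%. With single libraries left out, the first ranged from 10.8% to 15.2%, the second from 31.6% to 40.0%, and the log2 ratio of CD8+ to CD4+ Tc from 3.16 to 4.40. The log2 fold change of Glp1r by genotype turned to −0.080 with CD8+ Tc taken by cluster, to −0.0362 without Trav6n-5 cells (an alternative chosen after seeing the data) and to −0.089 with a replicate block. With single libraries left out, which leaves 1 genotype with a single mouse assumed to vary like the others, it ranged from −1.32 to 1.14, with −0.56 without Havcr2fl/fl replicate 1, and over 12 alternatives the adjusted p was 0.729 to 1.00. The number of genes called by genotype was 84 with no filter on low counts and 1 to 32 with single libraries left out. It was 0 of 10897 with the replicate block in edgeR, against 3 without the block, where 278 genes had an unadjusted p under 0.05 and DESeq2 called 4. Nothing in the labels pairs the replicate numbers, and deviations of same-numbered libraries had a correlation of −0.154 over 5916 genes. With the numbers crossed, also chosen after seeing the data, 59 genes were called. The number of genes called between Glp1r-positive and Glp1r-negative cells was 1401 with CD8+ Tc by cluster, 541 by DESeq2, 321 after thinning, 138 within TTEX-like cells and 559 to 881 with single libraries left out. Of the named genes, Cd69 and Klra3 turned after thinning (0.15 and −0.20), and Ifng, Cx3cr1, Cd69 and Hbb-bs within TTEX-like cells (−0.43, 0.0069, 0.33 and 0.018). The causes of these shifts were not tested. Of the other values for single genes under an alternative, 915 kept their direction and side of the threshold and 105 kept their direction but no longer passed. Those counts pool all alternatives, which differ much in how many calls they kept. Within TTEX-like cells 58 of 75 named genes were tested, of which 19 kept their call, 35 lost it and 4 turned. After thinning 68 were tested, of which 48 kept their call, 18 lost it and 2 turned. At these depths 398 of 654 positive cells held 1 UMI.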
